A study of Mus musculus with 87 samples.

Results

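The 10 genes described here encode enzymes that break down amino acids and turn the released nitrogen into urea in the mouse liver. They were chosen by name: Cps1, Otc, Ass1, Asl, Arg1 and Nags for the urea cycle, and Tat, Tdo2, Hal and Sds for the first steps of the breakdown of tyrosine, tryptophan, histidine and serine. Each symbol stood on 1 row of the 37991 genes in the deposited table, all 10 rows were protein-coding, and all 10 were among the 15396 genes whose log2 RPKM (reads per kilobase of transcript and per M reads, M being mega, on a log2 scale) passed −1.5 in at least 1 liver.

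The urea cycle runs mainly in hepatocytes, where ammonia enters as carbamoyl phosphate in the mitochondrion and leaves as urea in the cytosol. Nags makes N-acetylglutamate, the activator that Cps1 requires, Cps1 makes carbamoyl phosphate, Otc joins it to ornithine, Ass1 and Asl build and split argininosuccinate, and Arg1 releases urea. Tat (tyrosine aminotransferase), Tdo2 (tryptophan dioxygenase), Hal (histidine ammonia-lyase) and Sds (serine dehydratase) each open the breakdown route of 1 amino acid, and glucocorticoids, glucagon and feeding are well known to act on several of the 10 genes.

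Poly(A) RNA was sequenced from individual livers of male C57BL/6 mice aged 12 to 14 weeks, the age at surgery per the study's methods. The mice had been trained to a 12 h light and 12 h dark cycle with food given in the dark only. Partial hepatectomy (PH), the surgical removal of most of the liver, or a sham operation without resection was done at Zeitgeber time (ZT) 2, where ZT0 is lights on. The livers remaining after PH (X) were collected at 1 h (X1, n = 6), 4 h (X4, n = 3), 10 h (X10, n = 6), 20 h (X20, n = 6), 28 h (X28, n = 3), 36 h (X36, n = 6), 44 h (X44, n = 3), 48 h (X48, n = 5) and 72 h (X72, n = 3), and after 1 week (X1W, n = 3) and 4 weeks (X4W, n = 2). Sham livers (S) were collected at 1 h (S1, n = 6), 4 h (S4, n = 5), 10 h (S10, n = 3), 20 h (S20, n = 3) and 48 h (S48, n = 3), and livers of mice that were not operated on (C) at ZT2 (C0, n = 9), at ZT6 (C4, n = 3) and beside X4W (C4W, n = 2). Of 87 labelled samples, 80 were used. The 7 others, not analysed here, were all 3 from 60 h after PH, 3 of X4 and 1 of X4W. ZT was shared by X and S of the same hour, by C4, S4, X4 and X28 (ZT6), by S20, X20 and X44 (ZT22) and by C0, S48, X48 and X72 (ZT2). No unoperated livers were analysed for ZT3, ZT12, ZT14 or ZT22. The ZT of X1W, X4W and C4W is not given here.

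The estimated depth was 12.2 to 48.8 M reads per library, with a median of 26.5 M. All 6 hepatocyte markers (Alb, Ttr, Apoa1, Apob, Serpinc1 and Fgb) were above the detection threshold in all 80 libraries, and of 4 pancreas markers, Prss2, Cpa1 and Pnlip were below it in all 80 (Cela1 was above it in all 80). The C4W libraries differed from each other by 1.36 times what counting alone gives, against 1.97 to 21 times for the 159 other pairs within a group, so C4W may hold less than 2 independent livers. Fewer cells of a type and less RNA per cell cannot be told apart in these whole livers.

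Per transcript length, Ass1 was the most abundant member in C0, with a median of 1067 RPKM (rank 75 of 15396 genes), followed by Arg1 at 671 RPKM and Cps1 at 492 RPKM. Tat had 323 RPKM and Tdo2 had 291 RPKM, and Otc, which holds the second step of the cycle, had 103 RPKM. Sds (64.4 RPKM), Asl (64 RPKM) and Hal (63.7 RPKM) lay close together, and Nags was the lowest at 16.6 RPKM (rank 2081). The value of Ass1 is uncertain in 1 respect: Gm5424, a row of the pseudogene type, followed it at 2.95 to 3.37 log2 units below in all 80 libraries, and reads that fit several places were shared out between them by the authors.

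In NCBIM37 (mm9) coordinates, Cps1 (ENSMUSG00000025991) spans chromosome 1 from 67169600 to 67277833, Otc (ENSMUSG00000031173) chromosome X from 9829431 to 9898150, Ass1 (ENSMUSG00000076441) chromosome 2 from 31325727 to 31376192 and Asl (ENSMUSG00000025533) chromosome 5 from 130487128 to 130501002. Arg1 (ENSMUSG00000019987) spans chromosome 10 from 24635014 to 24647276, Nags (ENSMUSG00000048217) chromosome 11 from 102006827 to 102010791 and Tat (ENSMUSG00000001670) chromosome 8 from 112514337 to 112523703. Tdo2 (ENSMUSG00000028011) spans chromosome 3 from 81761012 to 81780124, Hal (ENSMUSG00000020017) chromosome 10 from 92951513 to 92982049 and Sds (ENSMUSG00000029597) chromosome 5 from 120926540 to 120933941. All reads over the exons of a gene were counted together, so isoforms were not told apart.

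**Figure D1:**
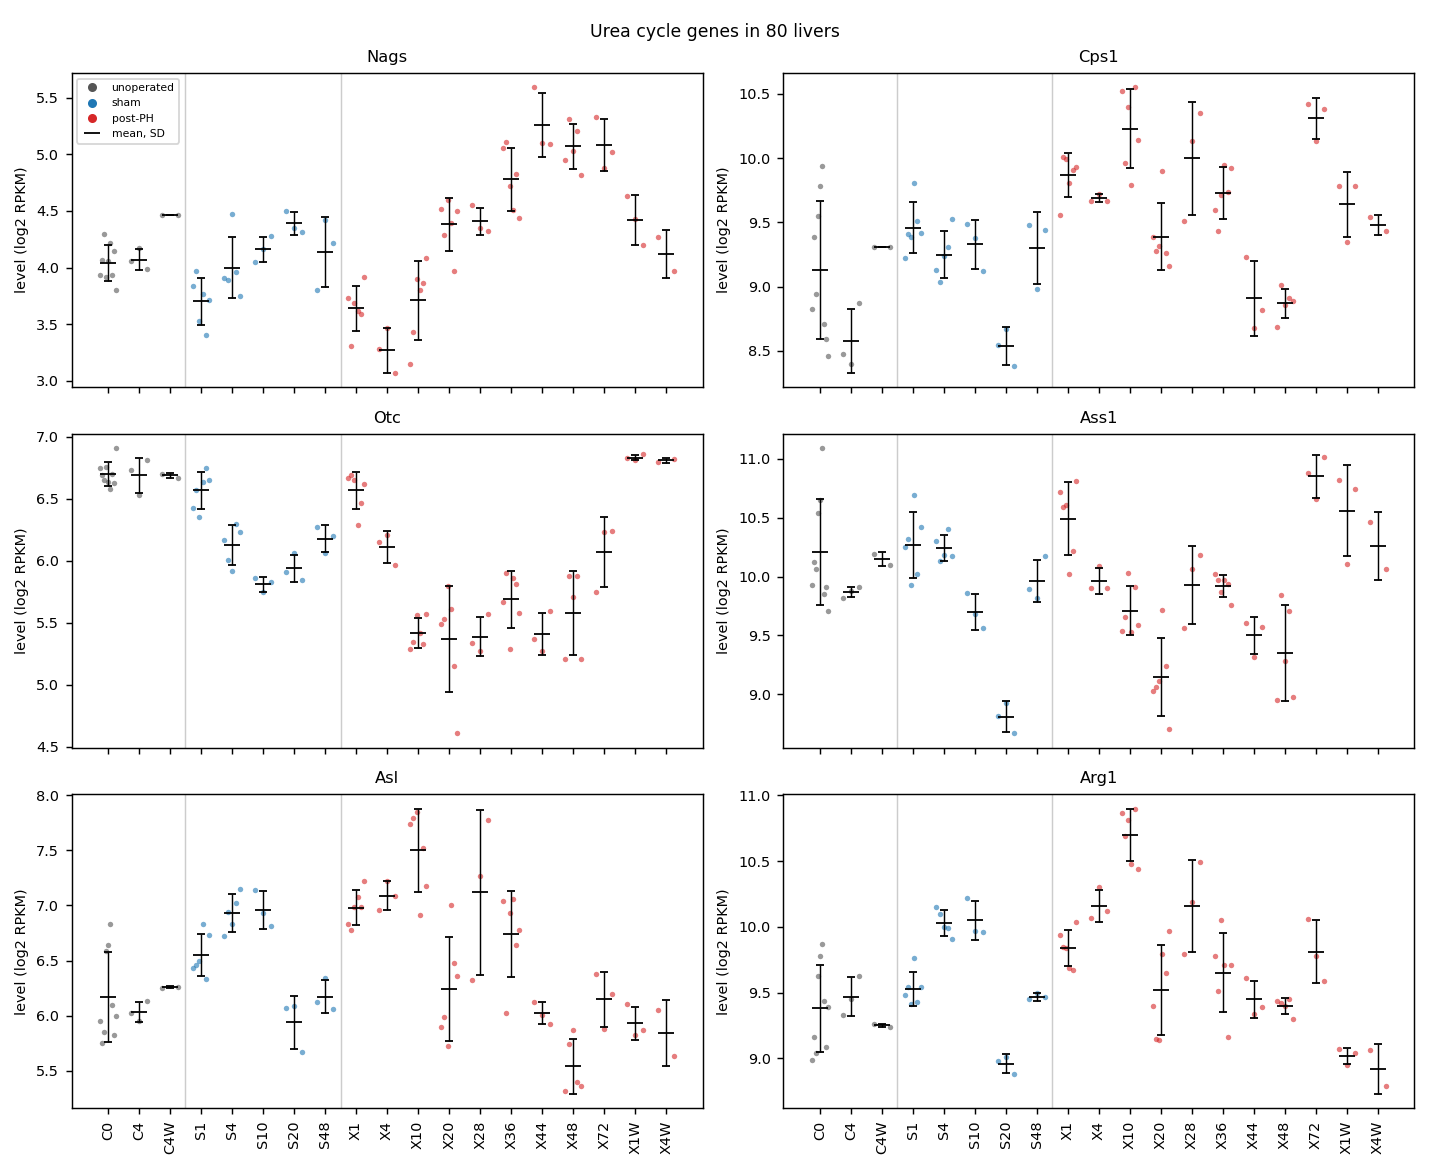
Level (log2 RPKM) of the 6 urea cycle genes in each of the 80 livers, by group (x axis; C, unoperated; S, sham; X, post-PH; numbers are hours, W weeks). Each point is 1 liver and the bars give the mean and SD; Nags climbs from a mean of 3.27 in X4 to 5.26 in X44, while Otc stays between 5.37 and 5.69 from X10 to X48.

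**Figure D2:**
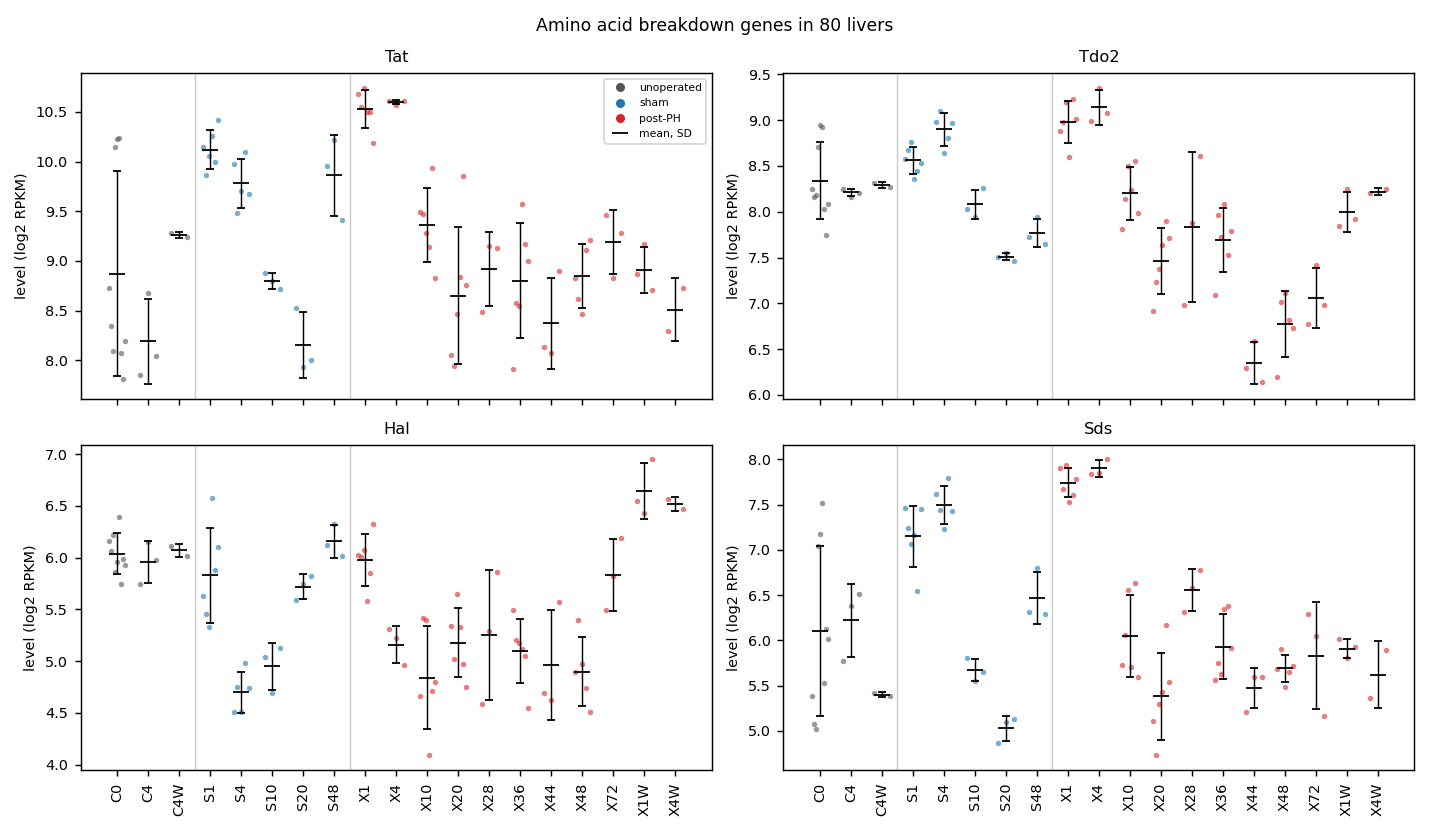
Level (log2 RPKM) of Tat, Tdo2, Hal and Sds in each liver, drawn as for the urea cycle genes. Tat and Sds peak in X4 (means of 10.60 and 7.90), Tdo2 goes from 9.14 in X4 to 6.35 in X44, and the 9 C0 livers of Tat and Sds are spread widely.

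Each member spanned a wide range over the 19 groups. Sds ranged from a mean log2 RPKM of 5.03 in S20 to 7.90 in X4, a 7.31-fold range, Tdo2 from 6.35 in X44 to 9.14 in X4 (6.92-fold) and Tat from 8.15 in S20 to 10.60 in X4 (5.46-fold). Ass1 was lowest in S20 (8.81) and highest in X72 (10.85), and Nags was lowest in X4 (3.27) and highest in X44 (5.26). The highest group of Cps1, X72 at 10.31 ± 0.16 (SD, n = 3), differed from the next, X10 at 10.23 ± 0.31 (SD, n = 6), by less than their spread. The lowest groups of Otc, X20 at 5.37 ± 0.43 (SD, n = 6), X28 at 5.39 ± 0.16 (SD, n = 3), X44 at 5.41 ± 0.17 (SD, n = 3) and X10 at 5.42 ± 0.12 (SD, n = 6), likewise overlapped. Asl and Arg1 were both highest in X10, at 7.50 ± 0.38 and 10.70 ± 0.20 (SD, n = 6), and Hal was highest in X1W, at 6.64 ± 0.27 (SD, n = 3), and lowest in S4, at 4.70 ± 0.20 (SD, n = 5).

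The unoperated C0 livers were not alike for these genes, which bears on every comparison with C0. In replicates 4 to 6, Tat read 10.15, 10.23 and 10.24 log2 RPKM, against 7.81 to 8.73 in the other 6 livers. Sds read 7.04, 7.17 and 7.52 in the same 3 livers, against 5.02 to 6.13 in the other 6. For 7 of the 10 members (Tat, Sds, Cps1, Ass1, Tdo2, Asl and Arg1), replicates 4 to 6 lay above all 6 others, by 0.58 (Arg1) to 2.00 (Tat) log2 units on average, whereas Otc, Nags and Hal overlapped. The 9 C0 livers were collected in 3 sets, and which replicate numbers form a set was not given in the sources used here. Values against C0 are therefore given with all 9 livers and, where they differ in call, without replicates 4 to 6, a choice made after seeing these values.

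**Figure D3:**
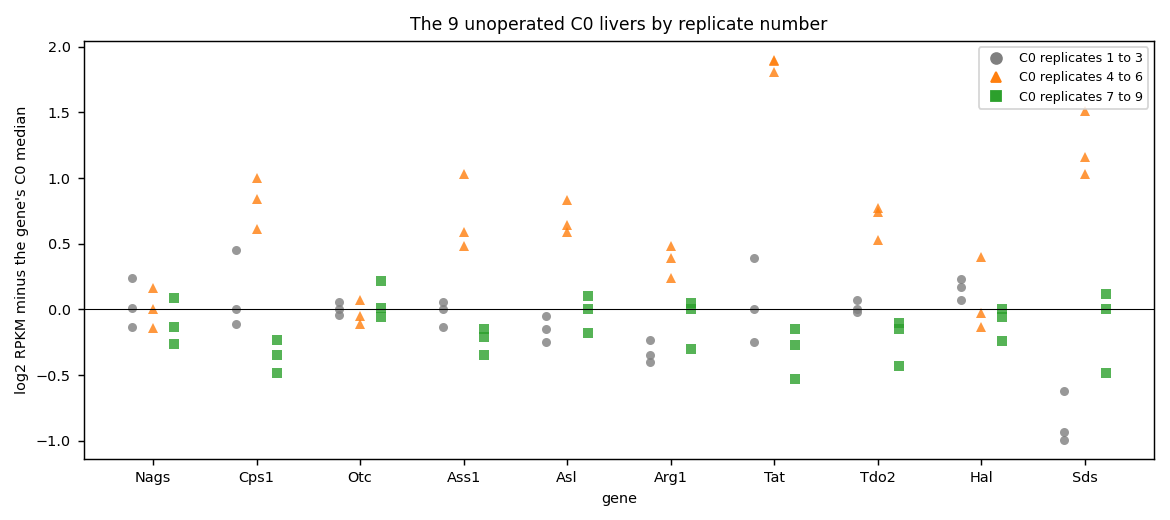
Log2 RPKM of each member in the 9 C0 livers minus the C0 median of that gene, with replicate numbers 1 to 3, 4 to 6 and 7 to 9 as symbols. Replicates 4 to 6 lie above the other 6 livers for 7 genes, most for Tat (mean difference 2.00) and Sds (1.71), and not for Nags, Otc or Hal.

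The RefSeq promoter table (GRCm38.p6) held 6 of the 10 members: Otc, Ass1, Nags, Tat, Tdo2 and Hal. The 250 bases before the start are shown for Otc and Hal, whose group means moved together (below), and for Tdo2 and Nags, whose group means moved in opposite directions. They were searched on both strands for TGACGTCA (full cAMP response element), TTGCNNAA (C/EBP), TTATGTAA (D box), CAAAGTCCA (HNF4 direct repeat) and for AGAACA and TGTTCT with 3 bases between them (glucocorticoid response element), and capitals mark the match found. Read 5′ to 3′ in the direction of the gene, they were for Otc chrX:10252055-10252304 (plus strand), for Hal chr10:93488518-93488767 (plus strand), for Tdo2 chr3:81975729-81975978 (minus strand) and for Nags chr11:102145263-102145512 (plus strand):
Otc: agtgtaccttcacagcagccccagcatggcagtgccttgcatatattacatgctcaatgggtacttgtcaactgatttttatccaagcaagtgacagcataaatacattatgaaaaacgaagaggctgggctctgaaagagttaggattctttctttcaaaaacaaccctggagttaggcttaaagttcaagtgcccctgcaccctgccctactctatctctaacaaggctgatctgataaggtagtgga
Hal: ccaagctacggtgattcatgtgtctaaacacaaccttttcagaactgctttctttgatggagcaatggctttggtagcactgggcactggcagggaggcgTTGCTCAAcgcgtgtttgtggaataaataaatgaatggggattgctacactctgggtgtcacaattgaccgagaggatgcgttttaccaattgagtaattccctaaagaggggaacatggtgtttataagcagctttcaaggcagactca
Tdo2: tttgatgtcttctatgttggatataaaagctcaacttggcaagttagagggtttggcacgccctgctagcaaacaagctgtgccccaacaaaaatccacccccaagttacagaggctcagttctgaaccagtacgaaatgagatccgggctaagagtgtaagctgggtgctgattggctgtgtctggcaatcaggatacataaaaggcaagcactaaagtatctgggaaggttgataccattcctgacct
Nags: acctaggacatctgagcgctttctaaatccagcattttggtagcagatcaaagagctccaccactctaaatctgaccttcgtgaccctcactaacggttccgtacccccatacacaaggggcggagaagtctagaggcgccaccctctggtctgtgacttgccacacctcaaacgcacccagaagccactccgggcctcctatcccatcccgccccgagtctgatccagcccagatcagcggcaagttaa
The promoter of Hal held 1 match to the C/EBP letters, TTGCTCAA at positions −150 to −143 from the start, and 9.56% of the 32851 promoters in the table hold such a match. The other 5 promoters held none of the searched letters, which were found in 1.55% (cAMP response element), 0.819% (D box), 0.384% (HNF4) and 0.00913% (glucocorticoid response element) of all promoters. No match says only that these letters are not in this window.

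Most members differed between sham-operated and unoperated livers at 4 h, and fewer did at 1 h and 48 h. Differences are given as log2 fold changes of RPKM + 0.25 from one limma model over all 80 libraries, and a gene is called where its Benjamini-Hochberg adjusted p is under 0.05 and its log2 fold change is beyond 0.5. At 4 h, 8 of the 10 members were called between S4 and C4, 6 higher and 2 lower, where 43.3% of all genes were called (12.2% higher and 31% lower). Of all called genes, 28.3% were higher, and 46% once all libraries had been brought to a common median RPKM (called the common median from here on). Tat read 9.98, 9.48, 9.70, 10.10 and 9.67 log2 RPKM in S4 and 7.85, 8.68 and 8.04 in C4, without overlap, with a log2 fold change of 1.59 ± 0.37 (SE) and an adjusted p of 0.000179. Sds rose by 1.28 ± 0.32 (SE), Asl by 0.90 ± 0.23, Tdo2 by 0.70 ± 0.23, Cps1 by 0.67 ± 0.21 and Arg1 by 0.56 ± 0.16, and the call on Arg1 was lost without C4 replicate 1. Ass1 (0.36, adjusted p 0.124) and Nags (−0.07, adjusted p 0.724) were not called, though Ass1 was with the common median (0.60).

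Hal and Otc went the other way after the sham operation. Hal read 4.51, 4.75, 4.51, 4.98 and 4.74 in S4 and 5.75, 6.15 and 5.98 in C4, and fell with a log2 fold change of −1.25 ± 0.23 (SE, adjusted p 5.92e-06). Otc read 6.17, 6.01, 5.92, 6.30 and 6.23 in S4 and 6.73, 6.53 and 6.81 in C4, and fell with a log2 fold change of −0.56 ± 0.15 (SE, adjusted p 0.00077), which was −0.33 and not called with the common median. For both genes the S4 livers also lay below all 9 C0 livers, whose lowest values were 5.75 for Hal and 6.58 for Otc.

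The size of the S4 rises depended on the unoperated livers used. With all 9 C0 livers in place of C4, Cps1 lost its call (0.12, adjusted p 0.559) and the other 7 kept theirs. With C0 replicates 4 to 6 alone, Hal (−1.36) and Otc (−0.53) stayed lower, Tat turned to −0.42 (adjusted p 0.195) and Cps1 to −0.51 (adjusted p 0.00741), Sds (0.26), Asl (0.25), Arg1 (0.27) and Tdo2 (0.04) were not called, and Ass1 was called lower (−0.52). Per the study's methods, C4 was collected in a period without S4, so operation and period cannot be told apart in this comparison. Among other cell types, 4 of 5 neutrophil markers were called higher in S4 (summed level 7.18 to 42.7 RPKM, against 1.27 to 4.69 in C4) and 5 of 5 stellate cell markers lower (30.7 to 49.4, against 70.7 to 83.9). The sums of 3 erythroid markers (29 to 47.2, against 64.9 to 98), 4 lymphocyte markers (0.208 to 0.79, against 1.42 to 3.22) and 4 cholangiocyte markers (15.7 to 29, against 29.6 to 43.4) were lower without overlap too. Their part in these results was not tested.

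At 1 h after the sham operation, 2 of 10 members were called against C0, where 7.77% of all genes were called, 2.44% higher and 5.34% lower. S1 was taken at ZT3 and C0 at ZT2, so the hour of day differed too. Tat ranged from 9.86 to 10.42 in S1 (median 10.11) and rose with a log2 fold change of 1.25 ± 0.27 (SE, adjusted p 0.000322), and Sds ranged from 6.54 to 7.46 (median 7.20) and rose with 1.05 ± 0.23 (SE, adjusted p 0.000495). Without C0 replicates 4 to 6 the rises were 1.92 for Tat and 1.62 for Sds, and Cps1 (0.64) and Asl (0.63) were called too. Higher genes made up 31.3% of the calls, and 56.6% with the common median, where Asl (0.52) was called as well. Against C0 replicates 4 to 6 alone, neither gene was called (Tat −0.08, adjusted p 0.893, and Sds −0.09, adjusted p 0.855).

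At 10 h, S10 differed from C0 in 5 of 10 members (29.1% of all genes, 17.9% higher and 11.2% lower). Otc read 5.86, 5.75 and 5.83 in S10, below the C0 range of 6.58 to 6.91, and fell with a log2 fold change of −0.88 ± 0.13 (SE, adjusted p 1.23e-07). Hal fell with −1.08 ± 0.21 (SE, adjusted p 2.64e-05). Arg1 (0.67 ± 0.15) and Asl (0.78 ± 0.21) rose, but neither was called against C0 replicates 4 to 6 alone (0.29 and 0.27), and Arg1 was not called with the common median (0.45), where 36.8% instead of 61.3% of all calls were higher. Ass1 (−0.51 ± 0.19) lost its call without those 3 livers (−0.23), or without any of them singly, or without S10 replicate 2 or 3. Without replicates 4 to 6, Cps1 was called higher (0.51, adjusted p 0.0086). S10 was taken at ZT12 and C0 at ZT2, so time of day and operation cannot be told apart here either. The summed hepatocyte markers read 40487 to 42215 RPKM in S10 and 45177 to 53998 in C0, without overlap (1 of 6 called higher and 2 lower), and the stellate markers 28.1 to 41 against 48.1 to 81.6 (4 of 5 lower), and their part in the result was not tested.

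At 20 h, S20 was lower than C0 in 5 of 10 members, where 4.29% of all genes were called lower, 7.85% higher and 12.1% in either direction (64.6% of calls higher, 36% with the common median). Ass1 read 8.82, 8.93 and 8.67 in S20, against 9.71 to 11.09 in C0, and fell with a log2 fold change of −1.40 ± 0.19 (SE, adjusted p 7.13e-08). Otc (−0.76 ± 0.13), Tdo2 (−0.83 ± 0.21), Cps1 (−0.60 ± 0.19) and Sds (−1.06 ± 0.29) were the others. Without C0 replicates 4 to 6, Ass1 (−1.12), Otc (−0.78) and Tdo2 (−0.57) were called and Cps1 (−0.28) and Sds (−0.49) were not. Cps1 also lost its call without C0 replicate 6, S20 replicate 1 or S20 replicate 3, and Tdo2 against C0 replicates 7 to 9 alone (−0.45). S20 was taken at ZT22 and C0 at ZT2, so time of day and operation cannot be told apart. Arg1 was called lower with the common median (−0.57). The summed hepatocyte markers were lower in S20 without overlap (34998 to 38901 RPKM, against 45177 to 53998 in C0, with 2 of 6 called higher and 2 lower), and their part was not tested.

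By 48 h after the sham operation, at the same ZT2 as C0, 3 of 10 members were called (8.88% of all genes, 3.83% higher and 5.05% lower). Otc read 6.27, 6.06 and 6.20, still below every C0 liver, with a log2 fold change of −0.52 ± 0.13 (SE, adjusted p 0.00379), which lost its call without S48 replicate 2 or C0 replicate 9, and against C0 replicates 4 to 6 alone (−0.48). Tat was called higher (0.98 ± 0.34, adjusted p 0.033) and Tdo2 lower (−0.57 ± 0.21, adjusted p 0.0442). Without C0 replicates 4 to 6, Tat stood at 1.65 and Sds (0.93) was called higher, and Tdo2 (−0.31) was not called. Against those 3 livers alone Tat stood at −0.35. The call on Tat was lost without S48 replicate 1 or 2 or any of C0 replicates 3, 7, 8 and 9, and that on Tdo2 without any 1 of the S48 livers or of C0 replicates 4 to 6. In S48, 3 of 6 macrophage markers were called higher, and 3 of 5 stellate cell and 2 of 4 cholangiocyte markers lower. Of 6 hepatocyte markers, 1 was called higher and 1 lower. The lymphocyte, erythroid and pancreas markers each had 1 called lower. The part of these markers was not tested. Between the unoperated groups C4 and C0, 4 h apart in the day, 1 of 10 members was called (7.89% of all genes, 5.81% higher and 2.08% lower, with 73.6% of calls higher and 51.2% with the common median), Cps1 at −0.55 ± 0.19 (SE, adjusted p 0.0366), and it was not called without C0 replicates 4 to 6 (−0.24), nor without 1 of C0 replicates 2, 4, 5 and 6 or of C4 replicates 1 and 2. Sds was called higher without C0 replicates 4 to 6 (0.69).

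The post-PH livers were compared with sham livers of the same hour, which share age, ZT and surgery except for the resection. The period of collection was not shared by all of them (below). At 1 h, limma called 0 of 10 members and 0.65% of all genes (0.624% higher and 0.026% lower). At an unadjusted p under 0.05, 5 of 10 members (Cps1, Asl, Arg1, Tdo2 and Sds) and 9.29% of all genes passed, all 5 members higher in X1. Sds ranged from 7.53 to 7.94 in X1, above the 6.54 to 7.46 of S1, with a log2 fold change of 0.58 ± 0.25 (SE) and an adjusted p of 0.429. Of 5 neutrophil markers, 1 was called higher in X1 (summed level 8.75 to 19.9 RPKM, against 2.55 to 10.9 in S1), and their part was not tested.

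**Figure D4:**
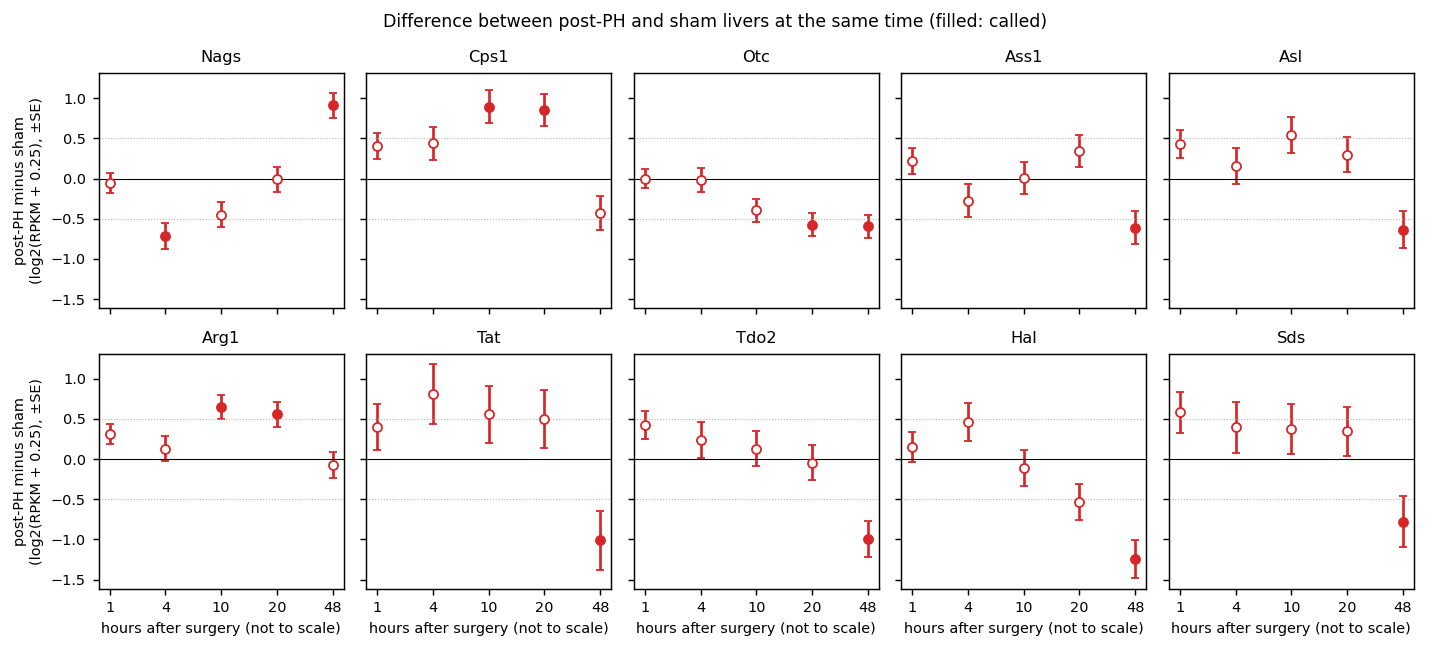
Difference between post-PH and sham livers of the same hour for each member, as the log2 fold change of RPKM + 0.25 with its SE, from 1 h to 48 h (the x axis is not to scale; dotted lines at ±0.5; filled points are called). Filled points are few until 20 h, and at 48 h 7 filled points lie below zero and that of Nags above it at 0.91.

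At 4 h, 1 of 10 members was called (8.64% of all genes, 3.16% higher and 5.48% lower; 36.5% of calls higher, 48.2% with the common median). Nags, the maker of the Cps1 activator, read 3.28, 3.47 and 3.07 in X4 and 3.91, 3.89, 4.47, 3.96 and 3.75 in S4. The groups did not overlap, and Nags was lower in X4 by a log2 fold change of −0.71 ± 0.16 (SE, adjusted p 0.00096). Per the study's methods, X4 and S4 were each collected in more than 1 period, and only 3 of 6 X4 livers were analysed. A part of the S4 livers may thus have had no X4 of their period, and PH and period cannot be fully told apart here. Tat was tightly grouped in X4 at 10.61, 10.57 and 10.61, above all 5 S4 livers, with a log2 fold change of 0.81 ± 0.37 (SE) that was not called (adjusted p 0.139). The summed endothelial markers were lower in X4 without overlap (12.4 to 13 RPKM, against 13.2 to 23.9 in S4). None of them was called, and their part was not tested.

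At 10 h, 2 of 10 members were called, both higher in X10, where 3.4% of all genes were called higher, 3.62% lower and 7.02% in either direction. Cps1, the entry enzyme of the cycle, ranged from 9.79 to 10.55 in X10 (median 10.27) and read 9.49, 9.38 and 9.12 in S10, a log2 fold change of 0.90 ± 0.20 (SE, adjusted p 0.00137). Arg1, its last enzyme, ranged from 10.44 to 10.90 (median 10.75) and read 10.22, 9.97 and 9.96 in S10, a log2 fold change of 0.65 ± 0.15 (SE, adjusted p 0.00252). Neither gene overlapped between the groups, and both were called with X10 replicates 1 to 3 alone (0.96 and 0.74) and 4 to 6 alone (0.83 and 0.56). With replicates 1 to 3 alone, Asl was called higher as well (0.84) and Nags lower (−0.65). The summed stellate cell markers were also higher without overlap, at 43.5 to 55.1 RPKM in X10 and 28.1 to 41 in S10 (1 of 5 called higher), and their part was not tested.

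At 20 h, 3 of 10 members were called (7.11% of all genes, 4.49% higher and 2.61% lower; 63.3% of calls higher, 43.2% with the common median). Cps1 ranged from 9.16 to 9.90 in X20 (median 9.30) and read 8.55, 8.67 and 8.38 in S20, a log2 fold change of 0.85 ± 0.20 (SE, adjusted p 0.00268). Arg1 was higher by 0.56 ± 0.15 (SE, adjusted p 0.0101), with 9.14 to 9.97 in X20 (median 9.52) against 8.98, 9.01 and 8.88. Otc was lower by −0.57 ± 0.14 (SE, adjusted p 0.00404), with 4.61 to 5.80 (median 5.51) against 5.91, 6.06 and 5.85.

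The calls on Arg1 and Otc at 20 h rested on a part of the X20 livers. Without X20 replicate 6, which had the highest Arg1 (9.97) and the lowest Otc (4.61), neither was called, and Arg1 was not called with the common median (0.47). With X20 replicates 1 to 3 alone, Cps1 was called (0.80) and Arg1 (0.28) and Otc (−0.33) were not, and with replicates 4 to 6 alone all 3 were (0.90, 0.84 and −0.81). Asl showed the same split without a call, at 5.90, 5.99 and 5.72 in replicates 1 to 3 and 7.00, 6.48 and 6.36 in replicates 4 to 6. Per the study's methods, X10 and X20 were each collected in 2 periods and S10 and S20 in only 1 of them, so a part of the post-PH livers at both hours had no sham of their period, and the link between period and replicate number was not given in the sources used here. The summed stellate cell markers read 52.4 to 73.9 RPKM in X20 and 30.5 to 48.4 in S20, without overlap (3 of 5 called higher), 1 of 6 hepatocyte markers was called higher and 1 of 3 erythroid markers lower, and their part was not tested.

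At 48 h, 8 of 10 members were called between X48 and S48, both taken at ZT2: 7 were lower in X48, where 2.69% of all genes were called lower, and 1 was higher, where 24.5% were (27.2% in either direction). The median log2 fold change was −0.62 over the members and 0.27 over all genes. All 4 breakdown enzymes were lower. Hal read 4.90, 5.40, 4.97, 4.74 and 4.51 in X48 and 6.12, 6.33 and 6.02 in S48, without overlap, a log2 fold change of −1.24 ± 0.23 (SE, adjusted p 1.25e-05). Tdo2 read 6.20, 7.02, 7.11, 6.82 and 6.73 in X48 and 7.72, 7.94 and 7.65 in S48, also without overlap, a log2 fold change of −0.99 ± 0.23 (SE, adjusted p 0.00025). Tat read 8.83, 8.62, 8.46, 9.11 and 9.21 in X48 and 9.95, 10.22 and 9.41 in S48 (−1.01 ± 0.37, adjusted p 0.0207), and its call was lost without S48 replicate 1 or 2. Sds read 5.68, 5.90, 5.48, 5.65 and 5.72 in X48 and 6.31, 6.80 and 6.29 in S48 (−0.78 ± 0.32, adjusted p 0.0416), and its call was lost when any library but X48 replicate 2 was left out.

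Within the urea cycle, the members divided at 48 h. Otc, Ass1 and Asl, the 3 middle enzymes, were lower in X48, with log2 fold changes of −0.60 ± 0.15 (SE, adjusted p 0.000612), −0.61 ± 0.21 (adjusted p 0.012) and −0.63 ± 0.23 (adjusted p 0.0187). Otc read 5.21, 5.88, 5.71, 5.88 and 5.21 in X48 and 6.27, 6.06 and 6.20 in S48, without overlap. Asl also did not overlap (5.32 to 5.87 against 6.06 to 6.34), whereas Ass1 did (8.95 to 9.84 against 9.82 to 10.17). The call on Asl was lost without S48 replicate 2 (−0.55) and that on Ass1 without S48 replicate 3 (−0.51). Nags was higher, at 4.95, 5.31, 5.03, 5.21 and 4.82 in X48 and 3.80, 4.42 and 4.22 in S48, a log2 fold change of 0.91 ± 0.16 (SE, adjusted p 3.64e-06). Cps1 (−0.43 ± 0.21, adjusted p 0.0849) and Arg1 (−0.07 ± 0.16, adjusted p 0.766) were not called, and Arg1 read 9.30 to 9.45 in X48 and 9.45 to 9.50 in S48.

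The scaling of the libraries bears on the 48 h values, since 90.1% of all called genes were higher in X48. With the common median, 38.8% of the called genes were higher, the log2 fold change of Nags was 0.42 and not called, Cps1 (−0.92) and Arg1 (−0.56) were called lower, and the 7 members already lower remained called. Beside these values, 1 of 6 hepatocyte markers was called lower (summed level 37222 to 41651 RPKM in X48 and 40789 to 50981 in S48), 2 of 5 stellate cell markers were called higher (40.8 to 79.7 against 45.7 to 49.5), and 1 of 4 cholangiocyte markers was called higher (29.2 to 43 against 18.2 to 27.3). Of 3 erythroid markers, 1 was called lower. The summed endothelial (14 to 18.4 against 19.1 to 24.6) and lymphocyte markers (0.0635 to 0.479 against 0.618 to 0.703) were lower without overlap, though none was called. The part of any of these markers in the result was not tested.

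The PH-minus-sham differences themselves were compared between hours. From 4 h to 20 h, 2 of 10 members changed, where 11% of all genes did (8.46% up and 2.51% down; 77.1% of calls up, 50% with the common median). That of Nags rose by 0.70 ± 0.22 (SE, adjusted p 0.0259) and that of Hal went down, by −1.0 ± 0.33 (SE, adjusted p 0.0306). Both calls were lost without S4 replicate 3, S20 replicate 2 or S20 replicate 3, and 1 of them without S4 replicate 1, X20 replicate 6 or any 1 of the X4 livers. With the common median, that of Nags (0.57) was not called and that of Otc (−0.69) was. From 20 h to 48 h, 7 of 10 members changed (13.2% of all genes, 12.5% up; 95.1% of calls up, 48% with the common median), with Nags up by 0.92 ± 0.22 (SE, adjusted p 0.00193) and 6 down, where 0.65% of all genes went down. The differences of Cps1 (−1.28 ± 0.29, adjusted p 0.00079), Tat (−1.51 ± 0.51), Ass1 (−0.95 ± 0.29), Tdo2 (−0.94 ± 0.31), Asl (−0.93 ± 0.32) and Arg1 (−0.63 ± 0.22) were the ones that went down. Cps1 was called with any 1 library left out, and that of Nags (0.52) was not called with the common median. With it, those of Hal (−1.11) and Sds (−1.52) were called. The count of called members ranged from 2 to 8 with 1 library left out. Without S20 replicate 3 it was 2, and it was 3 without S48 replicate 1, S48 replicate 2 or X20 replicate 5. The limits on period given for 4 h and 20 h hold for these changes too, and subsets of X20 were not fitted for them. Tat read 8.05, 7.94 and 8.46 in X20 replicates 1 to 3 and 8.84, 9.85 and 8.76 in replicates 4 to 6. S20 read 8.53, 7.93 and 8.00 for Tat. Asl was split in the same way (above), whereas Cps1 was called at 20 h with either set of X20 alone.

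Sham livers were not analysed for the other hours, and X28 was set against the unoperated C4 at the same ZT6. C4 and X28 were collected in different periods, per the study's methods, so PH and period cannot be told apart in this comparison. Of the 10 members, 5 were called (32.7% of all genes, 14.4% higher and 18.3% lower). Cps1 read 9.51, 10.13 and 10.35 in X28 and 8.48, 8.40 and 8.87 in C4, a log2 fold change of 1.42 ± 0.23 (SE, adjusted p 1.12e-06). Asl (1.09 ± 0.25, adjusted p 0.000367) and Arg1 (0.69 ± 0.18, adjusted p 0.00122) were higher as well. Otc read 5.34, 5.27 and 5.57 in X28 and 6.73, 6.53 and 6.81 in C4, a log2 fold change of −1.29 ± 0.16 (SE, adjusted p 2.48e-09). Hal was lower (−0.71 ± 0.26, adjusted p 0.0227), a call that was lost without X28 replicate 1 or without C4 replicate 2 or 3. X28 replicate 1 was the lowest of the 3 X28 livers for Cps1, Asl, Arg1, Tat, Tdo2, Hal, Ass1 and Sds. Summed markers were lower in X28 without overlap for hepatocytes (32202 to 35160 RPKM, against 47509 to 54825 in C4, with 2 of 6 called higher and 3 lower). The sums of stellate cells (39.6 to 47.9, against 70.7 to 83.9) and cholangiocytes (18.7 to 22.1, against 29.6 to 43.4) were too. So were those of lymphocytes (0.214 to 0.605, against 1.42 to 3.22) and endothelial cells (14.6 to 18.3, against 22.2 to 24.1). The erythroid (46.4 to 63.3, against 64.9 to 98) and pancreas sums (5.21 to 9.49, against 9.52 to 16) were lower as well. The macrophage and neutrophil sums overlapped, and the part of all these markers was not tested.

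X44 and X20 were taken at the same ZT22, 1 day apart, and 2 of 10 members differed (16.1% of all genes, 12.9% higher and 3.11% lower; 80.6% of calls higher, 44% with the common median). Cps1 was called lower as well with the common median (−0.76, against −0.48). Nags read 5.59, 5.10 and 5.09 in X44, above the 3.97 to 4.60 of X20, a log2 fold change of 0.87 ± 0.16 (SE, adjusted p 6.61e-06). Tdo2, which opens tryptophan breakdown, read 6.30, 6.59 and 6.14 in X44, below the 6.92 to 7.90 of X20, a log2 fold change of −1.11 ± 0.22 (SE, adjusted p 4.2e-05). X20 was collected in 2 periods and X44 in only 1 of them, per the study's methods. A part of the X20 livers thus had no X44 of their period, and which ones was not given. Tdo2 read 6.92, 7.23 and 7.37 in X20 replicates 1 to 3 and 7.64, 7.90 and 7.71 in replicates 4 to 6. The X36 livers, which have no partner at ZT14, held Nags between 4.44 and 5.11 (median 4.77) and Tdo2 between 7.09 and 8.08 (median 7.75).

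Against C0 at the same ZT2, 6 of 10 members were called in X48 (38.1% of all genes, 30.4% higher and 7.66% lower) and 5 of 10 in X72 (33.2%, 26.6% higher and 6.59% lower). With the common median, the share of calls that were higher went from 79.9% to 34.1% in X48 and from 80.1% to 40.8% in X72, and further members were called lower, Cps1 (−0.76) and Sds (−0.91) in X48 and Hal (−0.59) in X72. The summed hepatocyte markers of X48 (37222 to 41651 RPKM) lay below those of C0 (45177 to 53998), with 2 of 6 called higher and 2 lower, and their part was not tested. These comparisons share the C0 livers. In X72, Cps1 read 10.42, 10.13 and 10.38, above all C0 livers (8.46 to 9.94), a log2 fold change of 1.18 ± 0.19 (SE, adjusted p 3.48e-07). Nags read 5.33, 4.88 and 5.02 in X72, above the C0 range of 3.80 to 4.30, with 1.02 ± 0.15 (SE, adjusted p 2.24e-08). Tdo2 read 6.78, 7.42 and 6.98, below the C0 range of 7.75 to 8.95, with −1.27 ± 0.21 (SE, adjusted p 3.89e-07). Otc was lower (−0.63 ± 0.13, adjusted p 6.41e-05) in all 3 X72 livers than in any C0 liver and lost its call without X72 replicate 1, and Ass1 was higher (0.64 ± 0.19, adjusted p 0.00304) but not called with the common median (0.25).

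The calls on Cps1, Nags, Tdo2 and Otc in X72 held with each set of C0 replicates alone, whereas Ass1 was not called against replicates 4 to 6 alone (0.09). Without replicates 4 to 6, Arg1 (0.62) and Tat (0.98) were called higher in X72 too. In X48, Nags (1.01 ± 0.12), Tdo2 (−1.56 ± 0.17), Hal (−1.12 ± 0.18) and Otc (−1.12 ± 0.11) were called against each set of C0 replicates. Ass1 (−0.86 ± 0.16) was not called against replicates 7 to 9 alone (−0.48), and Asl (−0.63 ± 0.17) was not called without replicates 4 to 6 (−0.37), where Tat was called higher (0.64).

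After 1 week, 2 of 10 members were called against C0 (16.9% of all genes, 12.4% higher and 4.48% lower; 73.5% of calls higher, 36% with the common median). With the common median, neither was called (Hal 0.38 and Cps1 0.28) and Arg1 was called lower (−0.58). Hal read 6.55, 6.43 and 6.95 in X1W, above the C0 range of 5.75 to 6.39, a log2 fold change of 0.61 ± 0.21 (SE, adjusted p 0.0219) that lost its call without X1W replicate 3 and against C0 replicates 1 to 3 (0.50) or 4 to 6 (0.57) alone. Cps1 was higher by 0.50 ± 0.19 (SE, adjusted p 0.0323), and the call was lost without any 1 of C0 replicates 1, 3, 7, 8 and 9 or X1W replicates 1 and 3 and turned to −0.12 against C0 replicates 4 to 6 alone. Without those replicates, Cps1 stood at 0.82 and Ass1 (0.63) and Tat (0.71) were called as well. Otc read 6.83, 6.81 and 6.86 in X1W, within the C0 range of 6.58 to 6.91, and Nags read 4.63, 4.43 and 4.20 (log2 fold change 0.37 ± 0.15, adjusted p 0.0428), below the fold that a call needs. X1W was collected 1 week after surgery and its ZT is not given here, so age and time of day may differ from C0.

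After 4 weeks, limma called 0 of 10 members and 0.065% of all genes between X4W and C4W, and 0 of 10 members passed at an unadjusted p under 0.05 (4.06% of all genes). With the C4W libraries averaged as 1 sample, it called 0 genes in all. Tat read 8.29 and 8.73 in X4W and 9.28 and 9.24 in C4W (log2 fold change −0.75), and Hal read 6.57 and 6.47 against 6.11 and 6.02 (0.45). Each group held 2 libraries, and those of C4W may come from less than 2 independent livers.

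Beyond the 10 members, 105 genes of 12 lists were tested, covering the other steps of amino acid breakdown, the mitochondrial carriers of the cycle, ammonia and glutamine handling, uptake and regulators. At 48 h, 7 of them were called higher and 16 lower in X48 than in S48, where 24.5% of all genes were higher and 2.69% lower. The median log2 fold change of the list genes was −0.14 (0.27 over all genes). With the common median, 2 of the list genes were higher and 60 lower, where 1090 of all 15396 genes were higher and 1720 lower. All fold changes then moved down, by a median of −0.44 over all genes. In tyrosine and phenylalanine breakdown, 2 of 8 genes fell, Qdpr (−1.04), which recycles the cofactor of phenylalanine hydroxylase, and Hpd (−0.64). In the tryptophan list, 2 of 7 fell, among them Haao (−0.98), which acts further down the route that Tdo2 opens, and Kmo rose (0.57, but 0.07 and not called with the common median). In the histidine list 1 of 3 fell, Amdhd1 (−0.58), and in the methionine and cysteine list 3 of 9 fell, among them Csad (−1.60) and Gnmt (−0.93).

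In the glutamine and ammonia list, 2 of 8 genes rose and 1 fell at 48 h, and in the list of carriers and partners of the cycle 1 of 9 rose and 0 fell. Of all genes, 24.5% were called higher and 2.69% lower at that hour. Oat, which links ornithine to glutamate, had a mean log2 RPKM of 8.90 in X48 and 7.49 in S48 (log2 fold change 1.41, adjusted p 1.58e-05), and was already higher at 20 h (1.71) and 10 h (0.77). Slc25a22, a mitochondrial glutamate carrier, was called higher in the post-PH livers at all 5 hours, with log2 fold changes of 0.71 at 1 h, 0.81 at 4 h, 0.86 at 10 h, 1.56 at 20 h and 0.64 at 48 h. With the common median, Slc25a22 was not called at 1 h (0.66) or 48 h (0.15), and Oat was not called at 10 h (0.77, adjusted p 0.0517) but was at 48 h (0.91). At 10 h, 3 of 9 genes of the carriers and partners list rose and 1 fell, where 3.4% of all genes were called higher and 3.62% lower. Slc25a15, the ornithine carrier of the cycle, was called higher (0.84), and Car5a, a mitochondrial carbonic anhydrase that supplies bicarbonate, was lower (−1.70, adjusted p 5.61e-05). Gls2, the liver glutaminase, was lower at 48 h (−0.84).

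Over the wider lists, 3 genes were higher and 0 lower at 1 h after PH against sham, 7 and 2 at 4 h, 10 and 11 at 10 h, and 13 and 9 at 20 h. The counts with the common median were 1 and 0 at 1 h, 12 and 2 at 4 h, 9 and 11 at 10 h, and 11 and 13 at 20 h, so the balance at 20 h turned. Of all genes, 0.624% were higher and 0.026% lower at 1 h, 3.16% and 5.48% at 4 h, 3.4% and 3.62% at 10 h, and 4.49% and 2.61% at 20 h. Aass, which starts lysine breakdown, was higher at 1 h (0.58), 4 h (0.97), 10 h (1.30) and 20 h (0.92), and was not called at 1 h with the common median (0.53). Csad was higher at 4 h (1.23) and lower at 20 h (−1.59). Cebpa, a transcription factor of hepatocytes, was lower in the post-PH livers at 4 h (−1.18), 10 h (−0.96), 20 h (−0.97) and 48 h (−0.86). Among genes that mark fasting and feeding, Igfbp1 (2.64) and Pck1 (1.45) were higher and Srebf1 (−1.45) was lower at 20 h.

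After the sham operation at 4 h, 18 of the 105 genes were higher and 36 lower in S4 than in C4 (23 and 16 with the common median), where 12.2% of all genes were higher and 31% lower. The histidine route fell in 2 of 3 genes beside Hal, Amdhd1 (−1.5) and Ftcd (−1.18). Got1 (1.69) and Fh1 (1.30), which handle the aspartate and fumarate of the cycle, rose, as did Mat1a (1.86), which makes S-adenosylmethionine, and Glul (1.09), the glutamine synthetase. Igfbp1 rose by 2.85 and Nr1i3, a nuclear receptor, fell by 2.85 on the log2 scale.

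The members did not move as one group. Over the 19 group means, which share the scaling of their libraries, Pearson's r was 0.88 between Asl and Arg1, 0.85 between Tat and Sds and 0.82 between Otc and Hal, whereas it was −0.91 between Nags and Tdo2 and −0.65 between Arg1 and Hal. Cps1 had an r of at most 0.60 with any other member (Asl). Among 9763 genes with a mean log2 RPKM above 0, the group means most like those of Otc were those of Bphl (0.973), Acadsb (0.966) and Cyp2f2 (0.959), and the most like Nags were Xrcc6 (0.944), Itga5 (0.939) and Cbx1 (0.938). Sds was nearest to Fam134b (0.947), Hal to Nat8 (0.941), Arg1 to Crcp (0.911), Tat to Lpin1 (0.902), Asl to St3gal5 (0.89), Tdo2 to Baat (0.849) and Cps1 to Baiap2l1 (0.8). Ass1 was nearest to Gm5424 (0.993), the pseudogene row that may share its reads, and next to Cyp3a16 (0.84).

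**Figure D5:**
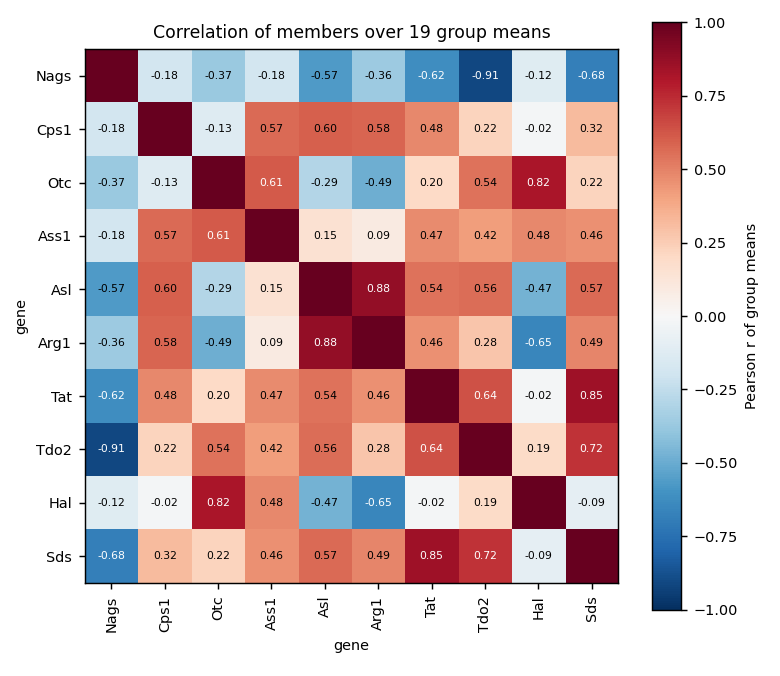
Pearson's r between the group means of log2(RPKM + 0.25) for each pair of members over the 19 groups (both axes list the genes; the colour scale runs from −1 to 1). The pairs Asl and Arg1, Tat and Sds, and Otc and Hal stand out as positive, and Nags and Tdo2 as negative at −0.91.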

How the data were processed

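Strand-specific poly(A) libraries were sequenced from individual livers. The authors deposited 1 table of log2 RPKM values: per their methods and processing notes, trimmed reads were aligned to mm9 with TopHat 2.0.13 and Bowtie2, handled with SAMtools 0.1.19 and counted over Ensembl exons with featureCounts, a read with several positions being divided among them. Genes without reads stand at −14.29, as do 52.9% of the values used. Of the 84 value columns, 4 matched no labelled sample and were not used. The depth of each library was estimated from the value of 1 read among low genes. log2(RPKM + 0.25) was fitted in 1 limma (3.58.1, R 4.3.3) model over 19 groups and 80 libraries, with a variance trend and Benjamini-Hochberg adjustment within each comparison over 15396 genes, and the fit was tested on simulated data. Tables and figures used Python 3.11.15 with pandas 2.3.3 and matplotlib 3.10.9. The pseudocount understates changes of low genes. The rule for named genes took all 10 members, the 3 genes most like each, and of each wider list at most 2 called rises and 2 called falls a comparison, among genes with a mean log2 RPKM above 0 in 1 of the groups. The members, lists and tests were chosen with earlier results of these data known. Groups follow the sample labels. Alternatives were other pseudocounts (1 and 0.05), other filters, library scaling to a common median, a replicate block, fits with only the groups compared, subsets of replicates, and each library left out. Deviations of livers with the same replicate number were not correlated above 0.1 in every pair of any comparison, so the numbers were not taken to pair livers. The values of 1 gene of the wider lists are not reported here.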

Additional observations from a re-analysis of the deposited data

Results flagged for a closer look

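In 80 tests of 1 member in 1 group of 5 to 9 livers, 2 livers stood apart from the rest of their group by Dixon's gap test, and chance alone flags about 1 in 20. Cps1 read 9.90 in X20 replicate 4, against 9.16 to 9.39 in the other 5 livers. Arg1 read 9.76 in S1 replicate 4, against 9.41 to 9.54 in the other 5.

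The difference between post-PH and sham livers changed between hours for several members, as tested by the interaction in the model. Between 4 h and 20 h it changed by 0.70 for Nags and by −1.0 for Hal on the log2 scale. Between 20 h and 48 h it changed by 0.92 for Nags and by −1.28 for Cps1, −0.95 for Ass1, −0.93 for Asl, −0.63 for Arg1, −1.51 for Tat and −0.94 for Tdo2. Each call was recomputed in 25 alternative fits. For the first change, that on Nags was lost in 7 and that on Hal in 8. For the second, losses numbered 13 for Arg1, 9 for Asl, 8 for Tat, 7 for Tdo2, 2 for Ass1, 2 for Nags and 0 for Cps1.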

How the results depend on the processing

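Other pseudocounts and a stricter filter changed none of the 19 counts of called members by over 1.5 times. Without a filter the counts were 1 for S48 against C0, 0 for C4 against C0, 0 for X1W against C0, 0 for the change of the PH-minus-sham effect from 4 h to 20 h and 3 for that from 20 h to 48 h. With every library at the same median, by RPKM or by log2(RPKM + 0.25) (chosen after seeing the data), X1W against C0 had 1. The other counts stayed within 1.5 times their value, but with either scaling 10 of 67 calls were lost and 13 gained. A fit of only the groups compared gave 2 for X4 against S4, 1 for X20 against S20, 1 for S1 against C0, 3 for S20 against C0, 1 for S48 against C0, 0 for C4 against C0 and 1 for X1W against C0. The replicate block gave 2 for C4 against C0 and 0 for X1W against C0, and left the other 17 counts within 1.5 times their value, with 4 calls lost and 5 gained. X10 replicates 1 to 3 alone gave 4, and X20 replicates 1 to 3 alone gave 1, against their shams.

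C0 replicates 4 to 6 alone gave 0 for S1, 8 for S20, 6 for C4 and 5 for X1W. Replicates 7 to 9 alone gave 5 for S1, 3 for S20, 0 for C4 and 4 for X1W, and replicates 1 to 3 alone gave 8 for X72. Without replicates 4 to 6 (chosen after seeing the data), S1 had 4, S20 had 3 and X1W had 4. Against C0 replicates 4 to 6 alone, the log2 fold changes turned to −0.08 for Tat and −0.09 for Sds in S1, −0.35 for Tat in S48 and −0.12 for Cps1 in X1W. With these 3 livers in place of C4, S4 had 4 called members, with Cps1 at −0.51 and Tat at −0.42. With 1 library left out, the counts ranged from 1 to 3 for X20 against S20, 0 to 3 for S48 against C0, 0 to 1 for C4 against C0, 0 to 3 for X1W against C0, 0 to 3 for the 4 h to 20 h change and 2 to 8 for the 20 h to 48 h change. The causes were not tested. Groups of 2 or 3 livers and a spread of C0 livers as wide as the effects on Tat and Sds limit these comparisons.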
